A study of Mus musculus with 6 samples.

Results

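Lysosome-related organelles, the melanosome of pigment cells among them, are built by a set of cytosolic protein complexes that sort and deliver membrane cargo. BLOC-1, BLOC-2 and BLOC-3 (biogenesis of lysosome-related organelles complexes), the adaptor complexes AP-3 and AP-1, and the tethering complex HOPS were described here through 31 genes, of 22180 genes measured. The genes were taken from a fixed list of subunits and associated factors, and all 31 were found on the array. Probe sets assigned to a single gene symbol were considered, and of several for a gene the brightest on average was taken. The choice of probe sets used no measured difference between the lines. The genes, and the lists of related genes given below, were chosen with earlier results of these data known.

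Gene expression was measured on 6 Affymetrix arrays of immortal mouse melanocytes, 3 arrays for each of 2 cell lines on a C57BL/6J background. The heterozygous line carries 1 Sox10 allele with a LacZ insertion (Sox10LacZ/+) and lacks Ink4a-Arf; it was derived from mice 3 days old. The control line with wild-type Sox10 is melan-Ink4a-Arf-1, which the labels also call melan-a. Its genotype is Cdkn2a tm1RDp/tm1RDp, so the Ink4a-Arf locus is disrupted in both lines, and no age is given for its mice. Both were grown in medium with 10% serum, 200 nM of the phorbol ester 12-O-tetradecanoylphorbol 13-acetate and 200 pM cholera toxin, at 37°C with 10% CO2. The sample labels name 1 line for each genotype, so genotype and line cannot be told apart. Nothing says that the 3 arrays of a line came from separate cultures, so p-values reflect only how these arrays scatter, which may be technical.

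In pigment cells the complexes act in a sequence of transport steps. AP-3 and AP-1 gather cargo such as tyrosinase on endosomes, BLOC-1 shapes the endosomal tubules that carry it, BLOC-2 directs those tubules to melanosomes, and BLOC-3 activates the small GTPases Rab32 and Rab38, which recruit the machinery. HOPS tethers late endosomes and lysosomes before fusion. Inherited loss of AP-3 or BLOC subunits causes forms of Hermansky-Pudlak syndrome, with pale coat or skin and defective platelet granules, and loss of Lyst causes Chediak-Higashi syndrome.

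Values are log2 signals, and a difference is the heterozygous mean minus the wild-type mean, so that 1 is a 2-fold difference. The array medians lay between 5.72 and 5.78. Wild-type replicate 2 stood apart from its line, where 261 genes lay 2-fold or more from the average of its companion arrays; the numbers were 22 and 54 for wild-type replicates 1 and 3 and 2 or fewer for each heterozygous array. Sox10 averaged 9.91 ± 0.10 on wild-type and 9.73 ± 0.05 on heterozygous arrays (SD, n = 3 each) and did not pass the test (difference −0.18, limma adjusted p 0.213). Where its probe set lies relative to the LacZ insertion was not established, so it is no check of the genotype. Of 7 melanocyte markers, 1 was higher, 2 were lower and 4 did not pass; their summed signal (log2) was 14.80 to 14.82 on heterozygous and 14.91 to 15.06 on wild-type arrays. Fibroblast markers were higher in 4 of 9 (summed 12.38 to 12.44 against 9.46 to 9.55, with Lum dim in both lines), endothelial and smooth muscle markers in 4 of 7 (12.51 to 12.59 against 8.68 to 8.79, with Kdr dim in both) and leukocyte markers in 2 of 6 (9.01 to 9.13 against 8.34 to 8.53, with Ptprc, Cd14 and Cd3e dim in both). Of 5 keratinocyte markers 0 passed by limma (summed 8.09 to 8.22 against 7.97 to 8.13, with Krt1 and Trp63 dim in both). A summed signal follows its brightest genes, so it does not show that a whole list rose. Acta2 (difference 5.34) made up most of the endothelial and smooth muscle sum on heterozygous arrays. Of that list Vwf (0.38), Tagln and Cnn1 also passed, and Pecam1, Cdh5 and Kdr did not. The fibroblast calls were Dcn, Col1a2, Pdgfrb and Fbln1, and the others, Col1a1 (−0.20) among them, did not pass. The leukocyte calls were Cd68 and Fcer1g. Of all genes 13.4% passed (7.46% higher). Dim here means a line's mean under the 40th percentile of signal, and the part of these markers in the results below was not tested.

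RNA for most of the complexes differed little between the lines. Of the 31 genes, Lyst rose and Hps5 and Rabggta fell in the heterozygous line, and 28 did not pass limma's test at an adjusted p below 0.05. These 3 calls are 9.68% of the genes, and 13.4% of all 22180 genes passed (7.46% higher and 5.92% lower), so the share is below that of the whole array. The median difference was −0.02, against 0.001 for all genes, with 13 differences above and 18 below 0. The median size of a difference, regardless of its sign, was 0.15 (0.12 for all genes). For 11 of the 31 genes, or 35.5%, the lines' arrays did not overlap, where 31.6% of all genes did not overlap. By limma, 7 of the 31 genes and 5533 of all 22180 had an unadjusted p below 0.05. The share among the 31 is thus not above that of the whole array.

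The arrays scattered little enough to bound most differences between these 2 sets of arrays. The intervals reflect only that scatter, which may be technical. The 95% confidence interval of the difference had a median half-width of 0.19, and it lay inside a 2-fold change in either direction for 30 of the 31 genes; the exception was Lyst, whose interval reached 1.21. For 26 genes it lay inside a 1.5-fold change, a bound chosen after the data were seen. Of all 22180 genes, 20805 lay inside the first bound and 18422 inside the second, so these shares are close to those of the whole array. None of the 31 genes was dim; the lowest were Ap3s1 at the 49.6th and Hps6 at the 51st. The arrays of the heterozygous line lay closer together: the median SD of the 31 genes was 0.04, and 0.10 in the wild-type line. Wild-type replicates 1, 2 and 3 were the farthest of their line for 7, 14 and 10 of the 31 genes, and heterozygous replicates 1, 2 and 3 for 16, 5 and 10. The median deviation of the 31 genes from the other arrays of the line was 0.12, 0.10 and 0.15 for wild-type replicates 1, 2 and 3.

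**Figure D1:**
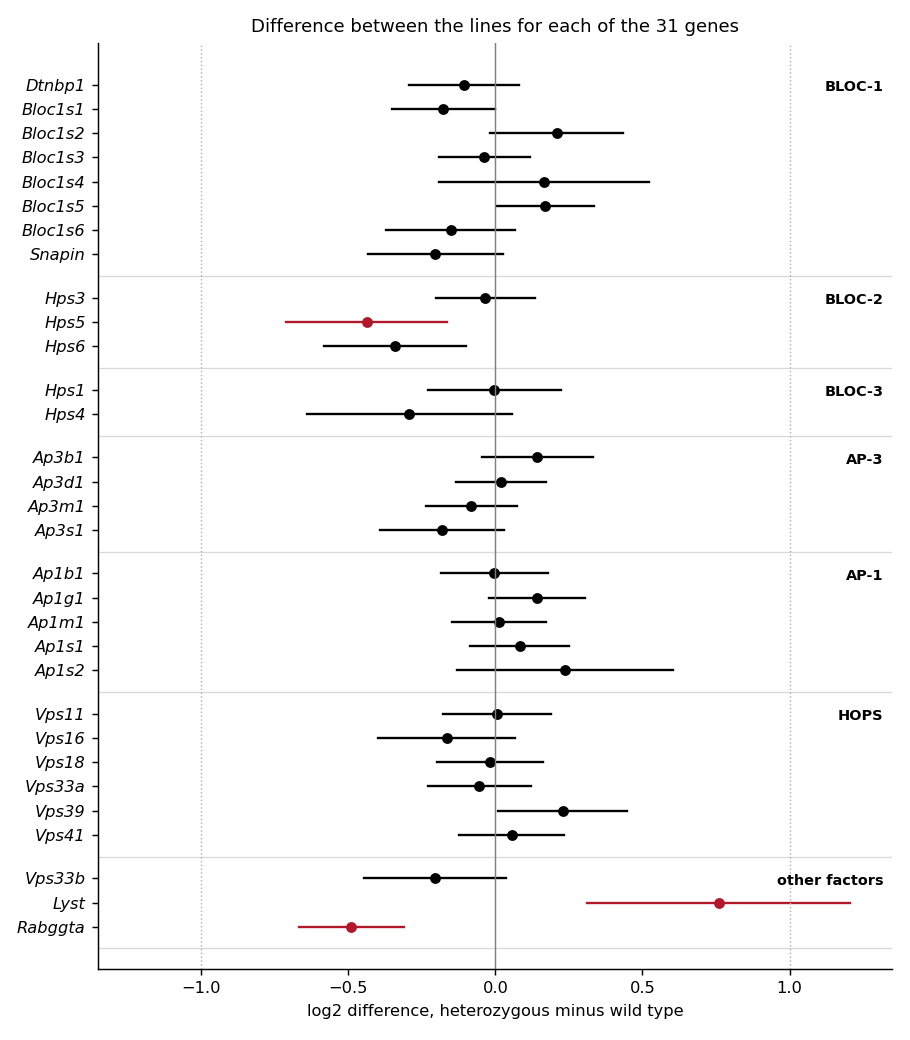
Log2 difference between the heterozygous and the wild-type line (x axis) for each of the 31 genes, grouped by complex; points are differences, bars are 95% confidence intervals, red marks genes that passed and dotted lines mark a 2-fold change. Most intervals cross 0, the differences run from −0.49 (Rabggta) to 0.76 (Lyst), and only the interval of Lyst crosses a 2-fold line.

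Several promoters of these genes share a sequence. The palindrome CACGTG is the core of the E-box bound by MITF, the master regulator of melanocytes, and by its relatives TFEB and TFE3, which drive lysosomal genes through a longer form with GT before and AC after it. RefSeq promoter windows of 300 bases (250 before to 50 after a start site, build GRCm38.p6) matched 24 of the 31 genes. CACGTG was found in 8 of the 24 (33.3%), against 1561 of 16990 measured genes with a window (9.19%; 9.39% of the protein-coding ones), and at least 2 copies were found in 3 of the 24 against 150 of the 16990 (0.883%). The longer form, which contains CACGTG, was found in 2 of 24 against 84 of 16990 (0.494%). The related CATGTG was found in 4 of 24 (16.7%, against 13.3%), and the letters ACAAAG and ACAATG, which SOX proteins can bind, in 3 (12.5%, against 19.2%) and 1 (4.17%, against 12.3%). Both strands were searched. Such a match is a description of letters and not of a bound site, and no test was made of these shares. The windows of the 24 genes were richer in GC (median 61.7% against 56.3%), and the shares were not adjusted for it.

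The 11 CACGTG sites are shown because this motif was found in more of the 24 genes than any other searched. Each is read 5′ to 3′ on the strand of the gene with 8 bases on either side, and capitals mark CACGTG.
Bloc1s1, chr10:128923514-128923535, minus strand: actgcgatCACGTGacgccttc
Bloc1s1, chr10:128923530-128923551, minus strand: tcttgcgtCACGTGatactgcg
Bloc1s3, chr7:19508365-19508386, minus strand: actcggctCACGTGacgctgcg
Hps1, chr19:42779966-42779987, minus strand: ggctgagtCACGTGtcctaccc
Hps3, chr3:20035312-20035333, minus strand: gcagcgctCACGTGatccggag
Hps5, chr7:46796060-46796081, minus strand: ctccggagCACGTGaccaccac
Hps5, chr7:46796095-46796116, minus strand: gctgagggCACGTGaccggaaa
Vps16, chr2:130424294-130424315, plus strand: ggcctcgtCACGTGaccccgaa
Vps33a, chr5:123573014-123573035, minus strand: cgtcccgtCACGTGacgcaggc
Vps33a, chr5:123573030-123573051, minus strand: actcggatCACGTGaacgtccc
Ap1s2, chrX:163908894-163908915, plus strand: ttccgggtCACGTGgccagact

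Except in Ap1s2, where the motif began at base 449 of the annotated gene, every site began between position −43 and position 37 counted from the first base of the gene. The 8 genes with CACGTG came from BLOC-1, BLOC-2, BLOC-3, HOPS and AP-1. Their differences ranged from −0.44 (Hps5) to 0.24 (Ap1s2), with a median of −0.05 and 7 of 8 below 0. Among the 7, Hps1 (−0.004), Hps3 (−0.03), Bloc1s3 (−0.04) and Vps33a (−0.05) were near 0. Hps1 lay above 0 with median centring (0.03) and without wild-type replicate 1 (0.05). The 16 genes with a window and no CACGTG ranged from −0.49 to 0.76, with a median of 0.04 and 7 of 16 below 0. Each group thus spanned 0, and each held a gene that fell. Whether the groups differ was not tested. Mitf itself was higher in the heterozygous line, by 0.67 (SE 0.07, limma adjusted p 0.000439), and a link to these genes was not tested.

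The bases upstream of the annotated start are shown for the 3 genes that passed, to set the called gene with CACGTG beside those without it. For Rabggta, 1 of its 3 windows is shown. Capitals again mark CACGTG, which occurs 2 times in the Hps5 stretch and 0 times in the others.
Hps5, chr7:46796066-46796131, minus strand: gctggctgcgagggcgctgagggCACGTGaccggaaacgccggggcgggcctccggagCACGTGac
Lyst, chr13:13590159-13590310, plus strand: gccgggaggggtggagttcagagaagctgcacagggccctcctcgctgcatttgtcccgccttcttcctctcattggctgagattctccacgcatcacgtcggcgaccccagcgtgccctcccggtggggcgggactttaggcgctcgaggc
Rabggta, chr14:55722264-55722513, minus strand: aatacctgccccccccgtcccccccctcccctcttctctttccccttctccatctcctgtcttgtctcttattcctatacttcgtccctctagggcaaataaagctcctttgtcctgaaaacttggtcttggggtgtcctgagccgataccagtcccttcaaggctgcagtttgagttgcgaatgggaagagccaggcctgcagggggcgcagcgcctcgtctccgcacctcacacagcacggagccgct
The GC content of the stretches was 75.8% for Hps5, 65.8% for Lyst and 58% for Rabggta. The median over whole windows was 61.7% for the 24 genes and 56.3% for all measured genes with a window.

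Adaptor complexes take cargo at the start of the route, and the subunits among the 31 genes are given first. Of the 4 AP-3 and 5 AP-1 genes measured, 0 passed by limma and 0 had an unadjusted p below 0.05. Across the array 13.4% of the 22180 genes passed and 5533 had such a p. Lists this short cannot show a lower share. The median difference was −0.03 for AP-3 and 0.08 for AP-1. Ap3d1, the large delta subunit whose loss gives the mocha mouse, had signals of 10.87, 10.88 and 10.84 in the wild-type and 10.87, 10.89 and 10.88 in the heterozygous arrays. These 6 values overlap, and the difference was 0.02 (95% confidence interval −0.14 to 0.17). Ap3b1, the beta subunit mutated in the pearl mouse, was 10.58, 10.71 and 10.47 in the wild-type and 10.71, 10.74 and 10.73 in the heterozygous arrays. Its heterozygous arrays all lay above the wild-type ones, narrowly so at wild-type replicate 2, and the difference of 0.14 did not pass (interval −0.05 to 0.33).

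The medium subunit gene Ap3m1, which reads tyrosine-based sorting signals, did not overlap between lines either, at 10.52 to 10.55 against 10.43 to 10.47. Its difference was −0.08 (interval −0.23 to 0.07). Such non-overlap was found for 31.6% of all genes. The small subunit gene Ap3s1 ran from 5.67 to 5.90 in the wild-type and from 5.56 to 5.73 in the heterozygous line, with a difference of −0.18. In AP-1, Ap1b1 (−0.004), Ap1m1 (0.01) and Ap1s1 (0.08) had differences below 0.1 in size, and the gamma subunit gene Ap1g1 differed by 0.14. Ap1s2, a small subunit gene on the X chromosome, was 9.87, 9.37 and 10.05 in the wild-type arrays and 9.99, 10.0 and 10.0 in the heterozygous ones. Its spread lay almost wholly in the wild-type line, where replicate 2 was low: the difference was 0.24 with that array and 0.04 without it, and neither passed. Xist was 4.81 ± 0.07 on wild-type and 11.06 ± 0.04 on heterozygous arrays, and Eif2s3y, on the Y chromosome, 9.28 ± 0.28 and 4.43 ± 0.23 (SD, n = 3 each), so sex and genotype cannot be told apart for any gene, this X-linked one included.

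BLOC-1 is the octamer that works at the endosomal tubule. Of its 8 genes 0 passed by limma, and 2 had an unadjusted p below 0.05: Bloc1s1 (−0.18) and Bloc1s5 (0.17), which lie on opposite sides of 0. Across the array 5533 of 22180 genes had such a p, so the share in BLOC-1 is close to that of all genes. Bloc1s1, a subunit that BLOC-1 shares with the lysosome-positioning complex BORC, was 8.83, 8.73 and 8.64 in the wild-type and 8.55, 8.56 and 8.57 in the heterozygous arrays. Bloc1s5, the muted gene, was 7.28, 7.40 and 7.38 against 7.54, 7.51 and 7.51. In both genes the lines did not overlap, as in 31.6% of all genes, and in both the adjusted p was near 0.19 (0.195 and 0.188).

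The other 6 BLOC-1 genes overlapped between lines. Snapin, a subunit that also binds the SNARE protein SNAP25, was 9.76, 9.52 and 9.85 against 9.46, 9.48 and 9.58, a difference of −0.20 (adjusted p 0.257). Without wild-type replicate 2 it was −0.30 and passed (adjusted p 0.0333; 0.0333 to 0.482 over all alternatives). Dtnbp1, which encodes dysbindin and is disrupted in the sandy mouse, differed by −0.11 and Bloc1s6, the pallidin gene, by −0.15. Bloc1s3 (−0.04) was the closest to 0, and Bloc1s4 (0.17) had the widest spread, from 6.34 to 6.85 in the wild-type line. Bloc1s2 differed by 0.21; a pseudogene, Bloc1s2-ps, shares another probe set with it, so how far its signal is its own is uncertain.

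BLOC-2 held 1 gene that passed. Hps5, one of the 3 subunits of the complex and mutated in the ruby-eye 2 mouse, was 10.01, 9.64 and 10.07 in the wild-type and 9.43, 9.45 and 9.53 in the heterozygous arrays. All 3 heterozygous arrays were lower than all 3 wild-type arrays, with wild-type replicate 2 nearest to them. The heterozygous signal was 73.8% of wild type (difference −0.44, SE 0.12, limma adjusted p 0.0477). Hps6, the ruby-eye gene, was 5.87, 6.06 and 6.00 against 5.50, 5.58 and 5.83, so the lines did not overlap here either. Its difference of −0.34 did not pass (interval −0.58 to −0.10, adjusted p 0.0737; 0.0425 without heterozygous replicate 3, and 0.0425 to 0.239 over all alternatives). Hps3, the cocoa gene, was 9.06, 8.98 and 9.04 against 8.92, 9.02 and 9.03 and differed by −0.03 (interval −0.20 to 0.13). The median of the 3 was −0.34, but the differences of the subunits of this complex were unequal in size.

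Omitting wild-type replicate 1 or 3 or any 1 heterozygous array ended the call of Hps5 (adjusted p at most 0.155), as did quantile normalization and the fit without variance moderation (0.00163 to 0.174 over all alternatives). Without wild-type replicate 2 the difference was −0.57 and passed at 0.00163.

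BLOC-3, the exchange factor for Rab32 and Rab38, has 2 subunits, and neither passed. Hps1 was 7.34, 7.31 and 7.04 in the wild-type and 7.19, 7.30 and 7.19 in the heterozygous arrays, a difference of −0.004 (interval −0.23 to 0.22). A second, dimmer probe set for Hps1 gave −0.27 (SE 0.14), with 6.06, 6.31 and 6.19 against 6.20, 5.87 and 5.69, so the probe sets disagreed in size. Hps4, the light-ear gene, was 8.25, 8.62 and 7.96 against 8.0, 8.01 and 7.94. The difference of −0.29 had an interval from −0.64 to 0.06; without wild-type replicate 2, the highest array, it was −0.12.

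HOPS joins organelles before they fuse, and of its 6 genes 0 passed by limma. Vps39, the subunit at one end of the tether, was the only one with an unadjusted p below 0.05, at 10.05, 10.04 and 9.77 against 10.12, 10.20 and 10.23 (difference 0.23, interval 0.01 to 0.45, adjusted p 0.18). Such a p was found for 5533 of all 22180 genes, so it does not set Vps39 apart. Vps41, the subunit at the opposite end, ran from 10.76 to 10.94 and from 10.86 to 10.92 and differed by 0.06. The core subunits shared with the related tether CORVET were Vps11 (0.01), Vps16 (−0.17), Vps18 (−0.02) and Vps33a (−0.05). Vps33a, whose mutation gives the buff mouse, was 8.93, 8.82 and 8.77 against 8.79, 8.74 and 8.83, with an interval from −0.23 to 0.12. A second probe set for Vps18 gave 0.12, opposite in sign to the brighter one and also without a call.

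Vps33b is related to Vps33a but works with Vipas39 in a separate complex, CHEVI. It was 10.30, 10.53 and 10.14 in the wild-type and 10.12, 10.12 and 10.11 in the heterozygous arrays. The lines narrowly did not overlap at wild-type replicate 3, and the difference of −0.21 did not pass (interval −0.45 to 0.04). It was −0.10 without wild-type replicate 2.

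The widest differences among the 31 were in factors outside these complexes. Lyst encodes a very large protein that limits the size of lysosomes and melanosomes, and its loss gives the giant granules of the beige mouse. It was 7.96, 8.74 and 8.0 in the wild-type and 8.95, 9.02 and 9.01 in the heterozygous arrays. All heterozygous arrays were higher than all wild-type arrays, with wild-type replicate 2 lying 0.76 above the average of replicates 1 and 3 and close to the heterozygous ones. The heterozygous signal was 169% of wild type (difference 0.76, SE 0.19, limma adjusted p 0.0382). Without wild-type replicate 2 the difference was 1.01 (adjusted p 7.06e-05). Omitting any 1 of the other 5 arrays ended the call (adjusted p at most 0.128), as did the fit without variance moderation (7.06e-05 to 0.194 over all alternatives).

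Rabggta encodes the alpha subunit of the enzyme that attaches geranylgeranyl lipids to Rab proteins, and it is mutated in the gunmetal mouse. It was 8.35, 8.29 and 8.17 in the wild-type and 7.74, 7.80 and 7.80 in the heterozygous arrays. The lines were well apart, and wild-type replicate 2 lay between the other wild-type arrays. The heterozygous signal was 71.2% of wild type (difference −0.49, SE 0.08, limma adjusted p 0.00423), and it passed in all 15 other fits (0.00164 to 0.0281). A lower signal can come from fewer cells that express a gene or from less RNA in each, which cannot be told apart in a whole culture.

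**Figure D2:**
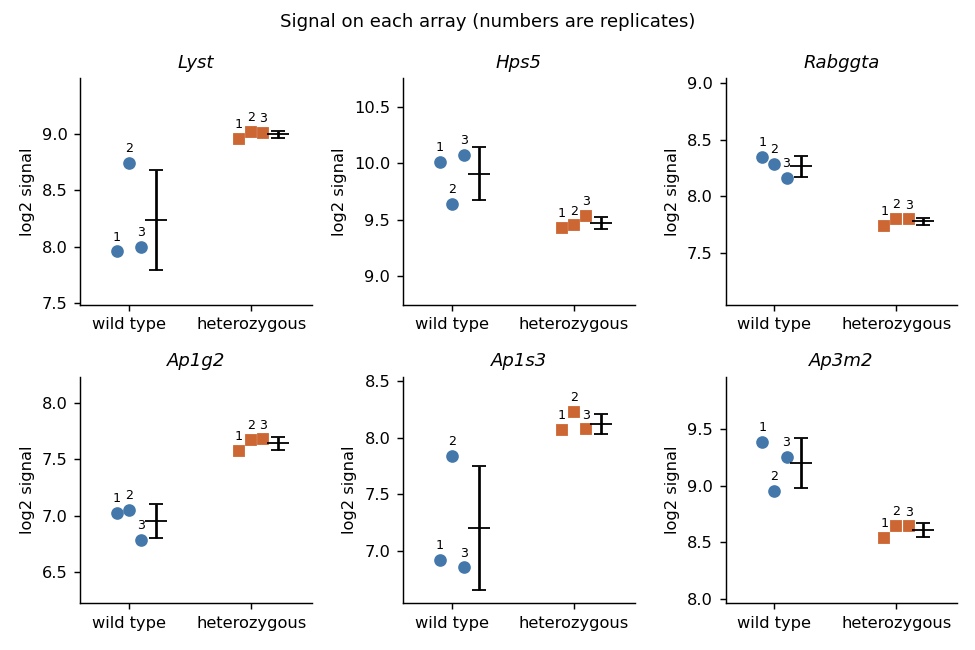
Log2 signal (y axis, each panel spanning 2 units around its own centre) on each array of the wild-type (circles) and heterozygous (squares) line for the 3 genes that passed and for 3 alternative adaptor subunits; numbers are replicates, and bars give mean ± SD of 3 arrays. Wild-type replicate 2 lies between the other wild-type arrays and the heterozygous ones for Lyst (8.74), Hps5 (9.64), Ap1s3 (7.84) and Ap3m2 (8.95).

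Adaptor subunits also come in alternative forms, and 3 of these passed. Of 9 alternative subunits and partners of Rabggta, 2 rose, 1 fell and 6 did not pass (median 0.04). The calls are 33.3% of this list, where 13.4% of all genes passed. Earlier results of these data were known when the list was chosen, so its share is not independent of the choice. Ap1g2, the second gamma subunit, was 7.03, 7.05 and 6.78 in the wild-type and 7.57, 7.68 and 7.68 in the heterozygous arrays, or 161% of wild type (difference 0.69, SE 0.09, limma adjusted p 0.00192). Ap1s3, a further small AP-1 subunit, was 6.92, 7.84 and 6.85 against 8.07, 8.22 and 8.07 (difference 0.92, adjusted p 0.0408). Ap3m2, the alternative medium subunit known from neurons, was 9.39, 8.95 and 9.26 against 8.54, 8.65 and 8.64, or 66.5% of wild type (difference −0.59, SE 0.12, adjusted p 0.0122). In each of the 3 the lines did not overlap.

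The call of Ap1g2 held in all 15 other fits. For Ap1s3 the call ended on omitting wild-type replicate 1 or 3 or any 1 heterozygous array, with quantile normalization and without variance moderation (adjusted p 5.92e-05 to 0.207). Without wild-type replicate 2 its difference was 1.24. Ap3m2 lost it without heterozygous replicate 1 (0.059) and without variance moderation (0.000825 to 0.0924 over all alternatives). Of the partners of Rabggta, its beta subunit Rabggtb differed by 0.18, and the escort proteins Chm and Chml, which present Rabs to the enzyme, by −0.04 and 0.28, with no call. The difference of Rabggtb was −0.07 on omitting wild-type replicate 2, with the sign turned, and at most 0.42 in the other alternatives, and Chml passed in 2 of the 15 other fits (adjusted p 0.0397 to 0.23).

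The balance between related or partner genes was compared within each array for 10 pairs, as the log2 ratio of their probe sets. The absolute ratio of signals from different probe sets has no meaning, so only its change between lines is given. Ap1g1 relative to Ap1g2 was lower by 0.55 in the heterozygous line (wild-type SD 0.19, heterozygous SD 0.03, n = 3 each), and Ap3m1 relative to Ap3m2 was higher by 0.51 (SD 0.23 and 0.08). Ap3s1 relative to Ap3s2 changed by −0.22, Ap3b1 relative to the neuronal Ap3b2 by 0.17 and Hps1 relative to Hps4 by 0.29. In these 5 pairs the lines did not overlap, which gives the smallest 2-sided exact permutation p that 3 against 3 arrays allow, 0.1, or 0.2 after Benjamini-Hochberg adjustment over the 10 pairs. The change for Hps1 and Hps4 was 0.16 without wild-type replicate 2 (0.15 with averaged probe sets), and without wild-type replicate 3 it was −0.14 for Ap3s1 and Ap3s2 (−0.09 with averaged probe sets). Ap3b2 was near the dim bound, at the 41.1st percentile of signal, which limits the reading of its ratio. Non-overlap was not counted for other gene pairs, and 31.6% of all single genes did not overlap. Ap1g2 (0.69) and Ap3m2 (−0.59) had passed on their own, whereas Ap1g1 and Ap3m1 differed by 0.14 and −0.08. The shifts of these 2 ratios are thus not separate from those calls.

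In the other 5 pairs the lines overlapped. Vps33a relative to Vps33b changed by 0.15, Vps39 relative to Vps41 by 0.17, Ap1s1 relative to Ap1s2 by −0.16, Ap1m1 relative to Ap1m2 by 0.10 and Rabggta relative to Rabggtb by −0.67. The last had the largest spread, with an SD of 0.56 in the wild-type and 0.23 in the heterozygous line. Exact permutation p-values were 0.2 to 0.6. Ap1m2 was dim in both lines (means 4.78 in wild type and 4.69 in heterozygous), which limits the reading of its ratio. Each of these 5 changes moved by over 1.5 times when 1 array was left out: without wild-type replicate 2 they were 0.04 for Vps33a and Vps33b, 0.06 for Ap1m1 and Ap1m2, −0.41 for Rabggta and Rabggtb and, with the sign turned, 0.02 for Ap1s1 and Ap1s2. Without wild-type replicate 3, Vps39 relative to Vps41 changed by 0.03 and Ap1s1 relative to Ap1s2 by −0.30; without wild-type replicate 1, Vps39 relative to Vps41 changed by 0.26. Rabggtb lies in the denominator of that pair and varied from 6.75 to 7.75 among wild-type arrays.

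**Figure D3:**
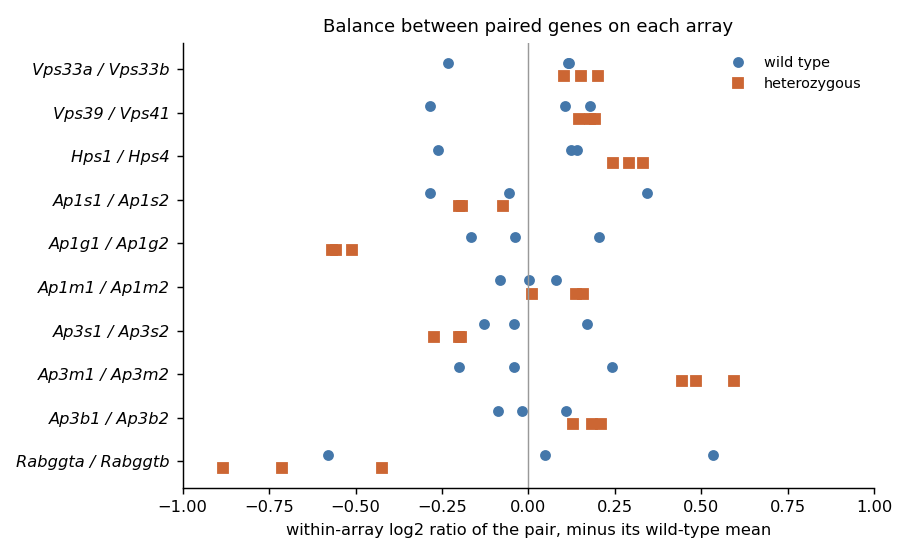
Within-array log2 ratio of each of 10 gene pairs, first over second gene, minus the pair's wild-type mean (x axis), with 1 point per array. Heterozygous arrays (squares) lie apart from wild-type arrays (circles) for Hps1 / Hps4, Ap1g1 / Ap1g2, Ap3s1 / Ap3s2, Ap3m1 / Ap3m2 and Ap3b1 / Ap3b2, the widest of these shifts being those of Ap1g1 / Ap1g2 (−0.55) and Ap3m1 / Ap3m2 (0.51).

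Several genes that work beside the complexes fell. Of 12 partners on the route to melanosomes, 5 fell and 7 did not pass (median −0.19). These calls are 41.7% of the list, where 13.4% of all genes passed (5.92% lower). The list was chosen with earlier results of these data known, so the larger share is not independent of that choice. Stx3, a SNARE protein of the target membrane, was 8.89, 9.0 and 8.97 in the wild-type and 7.51, 7.64 and 7.74 in the heterozygous arrays, or 39.9% of wild type (difference −1.32, SE 0.08, limma adjusted p 2.72e-05). Rab38, a substrate of BLOC-3, was 10.92, 10.79 and 10.87 against 9.44, 9.58 and 9.64, or 40.5%. Its close relative Rab32 was 10.88, 11.25 and 11.07 against 11.02, 11.12 and 11.13 and differed by 0.02 (interval −0.22 to 0.26).

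Kif13a, the kinesin that moves AP-1 endosomes toward the cell edge, was 8.57, 8.84 and 8.47 against 7.84, 7.92 and 7.83, or 59.1% of wild type (difference −0.76, SE 0.10). Anxa2, an annexin that works with BLOC-1 at endosomal tubules, fell by 0.55 (SE 0.07), and Vamp3, a vesicle SNARE, by 0.41 (SE 0.09, adjusted p 0.0213). The call of Vamp3 was lost without any 1 of the heterozygous arrays and without variance moderation (0.00994 to 0.0934 over all alternatives), whereas the other 4 passed in all 15 other fits. Vamp7, the SNARE that delivers cargo with Stx3, differed by 0.14 with no call, and the BLOC-1 partner Stx12 by 0.16. Rab9 differed by −0.29, with the lines not overlapping, and did not pass (limma adjusted p 0.071). It passed in 2 of the 15 other fits.

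Cargo of the route was lower in part. Of 11 cargo and organelle membrane genes, 4 fell and 7 did not pass (median −0.06). The calls are 36.4% of this list, against 13.4% of all genes (5.92% lower). This list too was chosen with earlier results known, so its share is not independent of the choice. On omitting wild-type replicate 2, 2 more passed as higher, the transporter gene Slc45a2 (0.44, limma adjusted p 0.0042) and the fibril protein gene Pmel (0.31, adjusted p 0.0287); with all arrays these differed by 0.27 and 0.22. Oca2, a chloride channel gene whose product reaches melanosomes through BLOC-1, was 10.85, 10.96 and 10.69 in the wild-type and 9.89, 9.98 and 9.98 in the heterozygous arrays, or 54.2% of wild type (difference −0.88, SE 0.09, limma adjusted p 0.000382). Tyr, the AP-3 and AP-1 cargo tyrosinase, fell to 23.4% of wild type, Gpr143 to 49.9% and Dct to 62.3%. The call of Gpr143 (adjusted p 0.01) was lost without variance moderation (0.109; 0.00132 to 0.109 over all alternatives), whereas the other 3 passed in all 15 other fits. Tyrp1, another cargo of BLOC-1, differed by −0.05 and the copper transporter gene Atp7a by 0.15, both with no call. The lysosomal and melanosomal membrane protein genes Cd63 (−0.05) and Lamp1 (−0.06) did not pass. Mlana differed by −0.29, with the lines not overlapping, and did not pass either (limma adjusted p 0.083). It passed in 1 of the 15 other fits.

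No call was made among partners of the tethers or other coats. Of 9 measured partners of HOPS, CORVET and CHEVI 0 passed by limma, and 0 had an unadjusted p below 0.05; the widest were those of the early endosomal GTPase gene Rab5a (−0.20) and the CORVET subunit gene Vps8 (−0.15). These were −0.31 and −0.03 without wild-type replicate 2, and Rab5a ranged from −0.31 to −0.03 over all alternatives. Of 3 measured BORC genes, whose complex shares subunits with BLOC-1, 0 passed and 1 had an unadjusted p below 0.05. Borcs5 differed by 0.30 and Borcs6 by −0.27, and without wild-type replicate 2 these were 0.48 and −0.38 and passed (adjusted p 0.00766 and 0.0194). Of 13 genes for AP-2, AP-4 and the retromer, which serve the cell surface, the trans-Golgi and recycling from endosomes, 0 passed and 3 had an unadjusted p below 0.05, with Ap2s1 (0.31, adjusted p 0.0627) and Ap4m1 (0.27, adjusted p 0.0842) the widest. Ap2s1 passed in 3 of the 15 other fits (adjusted p 0.0386 to 0.209) and Ap4m1 in 1 (0.0368 to 0.221). Of all 22180 genes 13.4% passed by limma, and 5533 had an unadjusted p below 0.05. Whether the share of calls differs between these lists was not tested.

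**Figure D4:**
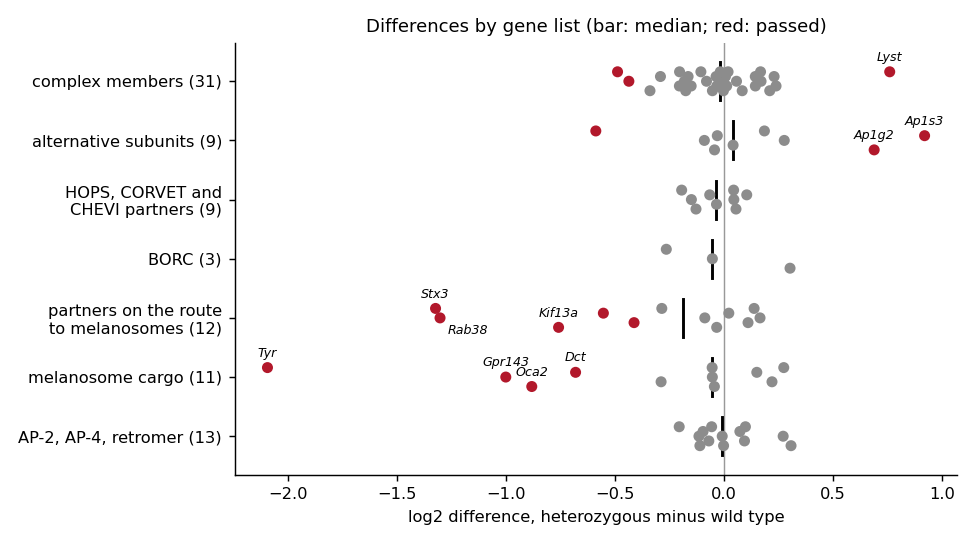
Log2 difference between the lines (x axis) for the 31 genes of the complexes and for 6 lists of related genes, with the number measured in brackets; each point is a gene, red marks genes that passed and black bars mark the median of a list. Points of the complexes lie between −0.49 and 0.76, whereas route partners and cargo reach −1.32 (Stx3) and −2.10 (Tyr).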

How the data were processed

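The values the authors deposited are on a log2 scale, judged from their range, and the submitters' processing notes name RMA and Partek. Versions, settings and genome build are not stated in the labels or headers. There were 41345 probe sets, and 23521 carried 1 gene symbol, 1814 several, and 16010 were unnamed in the annotation used. All 6 columns were used without further scaling and none were identical.

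The lines were compared over 22180 genes by lmFit and eBayes of limma (version 3.58.1, R version 4.3.3), 2-sided, with 7.87 total degrees of freedom. The threshold was an adjusted p (Benjamini-Hochberg) under 0.05. The procedure was tested on simulated data. The number of arrays limits the precision. Pairs of genes were tested by exact permutation over 20 regroupings. No replicate block was used in the main fit, because nothing says what arrays of the same number share. The block was run as an alternative. Same-numbered arrays did not deviate together (r of 0.007, 0.016 and −0.004).

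All 31 genes are named, with both genes of each pair and Sox10. Of each further list, up to 4 passing genes by size are named, or the 2 with the widest difference. Others were added after their values were seen. These were Vamp3, Rab32, Rab9, Vamp7, Stx12, Tyrp1, Atp7a, Cd63, Lamp1, Mlana, Chm, Chml, Slc45a2, Pmel, Mitf, Xist, Eif2s3y and the named cell type markers. The genes and lists were chosen with earlier results of these data known. Arl8b, Borcs8, Kxd1 and Krt5 had no probe set with a single symbol and were not analysed here. Alternatives are given in the closing section.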

Additional observations from a re-analysis of the deposited data

How the results depend on the processing

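The alternatives were 2 scalings, a filter on dim genes, averaged probe sets, 3 forms of variance moderation, array weights, a replicate block, other thresholds and each array left out. The count of members passing (1 higher, 2 lower) became 1 higher and 1 lower with quantile normalization. It was 0 higher and 1 lower without variance moderation or at an adjusted p below 0.01. With the replicate block it stayed at 1 higher and 2 lower, and the block changed no other call among the 31 genes. With 1 array left out it ranged from 0 to 1 higher and from 1 to 3 lower, while 1768 to 4222 of all genes passed. Without moderation 1717 of all genes passed, and 1588 did at an adjusted p below 0.01. Median differences ranged, with 1 array left out, from 0.0423 to 0.106 for AP-1, from −0.437 to −0.274 for BLOC-2, from −0.274 (without wild-type replicate 3) to −0.0426 (without wild-type replicate 2) for BLOC-3, from −0.298 to −0.102 for the other factors (the same arrays), and from −0.0459 to 0.0222, across 0, for HOPS. That of AP-3 was −0.00293 with median centring and −0.0209 with quantile normalization. With averaged probe sets, Ap3s1 relative to Ap3s2 changed by −0.0898. Of the checks on single members, 450 kept their side of the threshold, 13 lost a call and 2 gained one, and in 0 did a called direction turn; the causes were not tested. Signal over background limits the dimmest of the 31 genes, Ap3s1 and Hps6, and Ap1m2 and Ap3b2 among the pairs.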
